A study of Mus musculus with 6 samples.

Results

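Expression of p53 target genes outside the ARF-p53 core was compared between MLL-AF9/Mn1null and MLL-AF9/Mn1wt mouse cells. The set comprised 32 genes, taken by symbol. A probe set naming exactly 1 gene was found for 31 of them, among 18193 genes with such a probe set on the array. All 31 passed the filter on low signal, among 14680 genes tested. The remaining gene, Gdf15, which encodes a secreted member of the TGF-beta family, was not analysed here.

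Both groups were sorted mouse bone marrow cells that carried the leukaemia fusion oncogene MLL-AF9 and were transduced with an EGFP control vector. They were grown in DMEM with serum and mouse interleukin 3, human interleukin 6 and mouse stem cell factor. In the Mn1null group (n = 3) Mn1 had been deleted with CRISPR-Cas9, whereas the Mn1wt group (n = 3) kept the gene. Mn1 encodes a transcriptional cofactor. The sources used here do not give the strain or age of the mice, whether the cells were clones or pools, or whether replicates were separate cultures. The p-values therefore reflect the spread among these 6 arrays, and part of that spread may be technical.

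p53 is a transcription factor that is stabilised when ARF restrains its inhibitor Mdm2 or when DNA damage kinases modify it. It then raises genes that slow the cell cycle, repair DNA, trigger death receptors and the mitochondrial death pathway, or adjust metabolism and growth signalling. Many of these genes also answer to other factors, such as ATF4 (Sesn2, Ddit4) or the cell cycle machinery (Gtse1, Ckap2). In myeloid leukaemia p53 activity is known as a brake on the growth of transformed progenitors.

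Each value is a log2 expression value made by the authors with RMA, which corrects background, quantile-normalizes arrays and summarises the probes of a probe set. The medians of the arrays were 5.17 to 5.23. Correlations over the genes tested were 0.997 to 0.998 within groups and 0.968 to 0.969 between groups. Precision is limited by having 3 arrays per group. Mn1 itself averaged 4.13 ± 0.071 in Mn1null and 4.35 ± 0.20 in Mn1wt (log2, SD, n = 3 each), close to the filter level of 4.07, and limma called no difference (adjusted p = 0.121). Where its probe set lies relative to the deleted part is unknown here, so this value does not check the labels. Bacterial labelling controls read at their 5′ ends averaged 6.47 ± 0.059 in Mn1null and 7.32 ± 0.10 in Mn1wt, and 8 of 8 such probe sets did not overlap. Those read in the middle differed by -0.49 and those at the 3′ end by -0.30, with 6 of 8 probe sets not overlapping in each case. The part of these differences in the results below was not tested.

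The promoters of the p53 target genes are shown first, because p53 acts on its target genes by binding DNA. RefSeq promoters on GRCm38.p6, from 250 bases before to 50 bases after a transcript start, were matched for 26 of the 32 genes. No promoter was matched for Tnfrsf10b, Rrm2b, Ddb2, Perp, Zmat3 and Trp53inp1, and the last of these include the largest rises, those of Perp, Zmat3 and Trp53inp1. The matched promoters were searched for the p53 decamer consensus, a 10-base motif that reads the same on both strands. The decamer was present in 10 of the 26 genes (38.5%), against 9.55% of the 27025 genes with a promoter in the table. Per promoter window the shares were 34.4% of 32 for the p53 target genes and 8.36% of 32851 overall. The genes were chosen as p53 targets, so their higher shares of a p53 motif are no independent result. A pair of decamers at most 13 bases apart was in 0 of the 26 genes and in 0.074% of all genes. The sequences below are written 5′ to 3′ on the gene's strand with the decamer in capitals. Ccng1, Aen and Gadd45a were higher in Mn1null, Ckap2 was lower, and Ei24 and Ppm1d did not pass.
Ccng1 (chr11:40755237-40755536, minus strand): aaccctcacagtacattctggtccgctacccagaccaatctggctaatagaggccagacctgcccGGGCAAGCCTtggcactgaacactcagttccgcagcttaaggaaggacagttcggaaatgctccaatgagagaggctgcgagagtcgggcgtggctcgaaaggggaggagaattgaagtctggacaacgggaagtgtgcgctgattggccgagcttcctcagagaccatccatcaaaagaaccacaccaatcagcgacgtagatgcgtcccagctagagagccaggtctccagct
Aen (chr7:78895808-78896107, plus strand): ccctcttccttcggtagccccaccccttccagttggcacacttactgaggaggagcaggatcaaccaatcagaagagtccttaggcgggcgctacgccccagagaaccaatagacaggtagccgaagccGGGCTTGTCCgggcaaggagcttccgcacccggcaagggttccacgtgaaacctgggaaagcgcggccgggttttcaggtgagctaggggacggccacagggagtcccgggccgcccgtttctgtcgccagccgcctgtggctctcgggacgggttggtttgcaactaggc
Gadd45a (chr6:67037358-67037657, minus strand): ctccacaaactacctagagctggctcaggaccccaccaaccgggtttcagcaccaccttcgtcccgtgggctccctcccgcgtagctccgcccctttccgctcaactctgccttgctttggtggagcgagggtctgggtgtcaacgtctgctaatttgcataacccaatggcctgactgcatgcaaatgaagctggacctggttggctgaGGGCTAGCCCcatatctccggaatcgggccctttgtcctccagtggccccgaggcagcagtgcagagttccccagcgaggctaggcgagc
Ckap2 (chr8:22185770-22186069, minus strand): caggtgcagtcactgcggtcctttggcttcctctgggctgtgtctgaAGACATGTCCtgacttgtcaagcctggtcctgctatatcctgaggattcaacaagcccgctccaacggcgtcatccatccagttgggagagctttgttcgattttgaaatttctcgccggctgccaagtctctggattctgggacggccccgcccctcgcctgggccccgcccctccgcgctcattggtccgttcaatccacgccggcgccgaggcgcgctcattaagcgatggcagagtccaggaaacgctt
Ei24 (chr9:36797285-36797584, minus strand): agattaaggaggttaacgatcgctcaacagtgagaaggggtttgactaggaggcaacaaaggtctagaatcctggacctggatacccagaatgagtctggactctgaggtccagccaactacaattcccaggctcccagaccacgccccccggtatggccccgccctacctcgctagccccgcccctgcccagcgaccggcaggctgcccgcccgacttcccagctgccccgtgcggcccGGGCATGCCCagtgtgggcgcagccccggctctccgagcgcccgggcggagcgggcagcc
Ppm1d (chr11:85311004-85311303, plus strand): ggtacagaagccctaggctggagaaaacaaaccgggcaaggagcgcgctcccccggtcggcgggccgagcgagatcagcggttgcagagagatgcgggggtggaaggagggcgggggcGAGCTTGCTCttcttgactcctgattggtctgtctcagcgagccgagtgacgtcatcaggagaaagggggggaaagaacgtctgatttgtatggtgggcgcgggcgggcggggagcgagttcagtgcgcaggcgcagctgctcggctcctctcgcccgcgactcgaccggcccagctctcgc

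The decamer began 185 bases before the start in Ccng1, 121 in Aen, 40 in Gadd45a, 203 in Ckap2, 10 in Ei24 and 132 in Ppm1d. It was present in 5 of 13 genes that were higher in Mn1null, 1 of 5 that were lower and 4 of 7 that did not pass, and absent from that of Gdf15. Among the genes that rose and had a promoter in the table, Phlda3, Eda2r, Ddit4, Btg2, Dcxr, Sesn2, Fas and Epha2 had no exact match in this window. A match is a description of letters only, and sites with a mismatch or outside the window were not counted.

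More p53 target genes were higher than lower in Mn1null. Of the 31, limma called 16 higher and 5 lower at a threshold of 0.05 on the p adjusted over all genes, and 10 missed it. Over all 14680 genes the same test called 48.8%, 23.2% higher and 25.6% lower, which is the background for the 51.6% higher and 16.1% lower found here. The same shares are the background for the counts by role and by list below. The p53 target genes and the lists were chosen with earlier results of these data known. The median difference of the 31 genes was 0.26 on the log2 scale, with quartiles of -0.067 and 0.91. For all genes tested the median was -0.0053 and the quartiles were -0.20 and 0.19.

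A rise of at least 2-fold was reached by 7 of the 31 genes, against 3.77% of all genes tested. A fall of at least 2-fold was reached by 0 of the 31, a share near the 2.3% of all genes tested. Perp, Zmat3, Trp53inp1, Eda2r and Phlda3 stood among the 200 largest rises of all genes tested, at ranks 22, 99, 116, 119 and 188. Of these, Perp, Zmat3, Eda2r and Phlda3 were each read by a single probe set, so no other probe set checks their rises. The 3 Mn1null values lay outside the range of the 3 Mn1wt values for 23 of the 31 genes, against 57.7% of all genes. They were above for 16 genes and below for 7, where 27.6% and 30.1% of all genes were above and below. The 16 above were the 16 that rose.

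**Figure D1:**
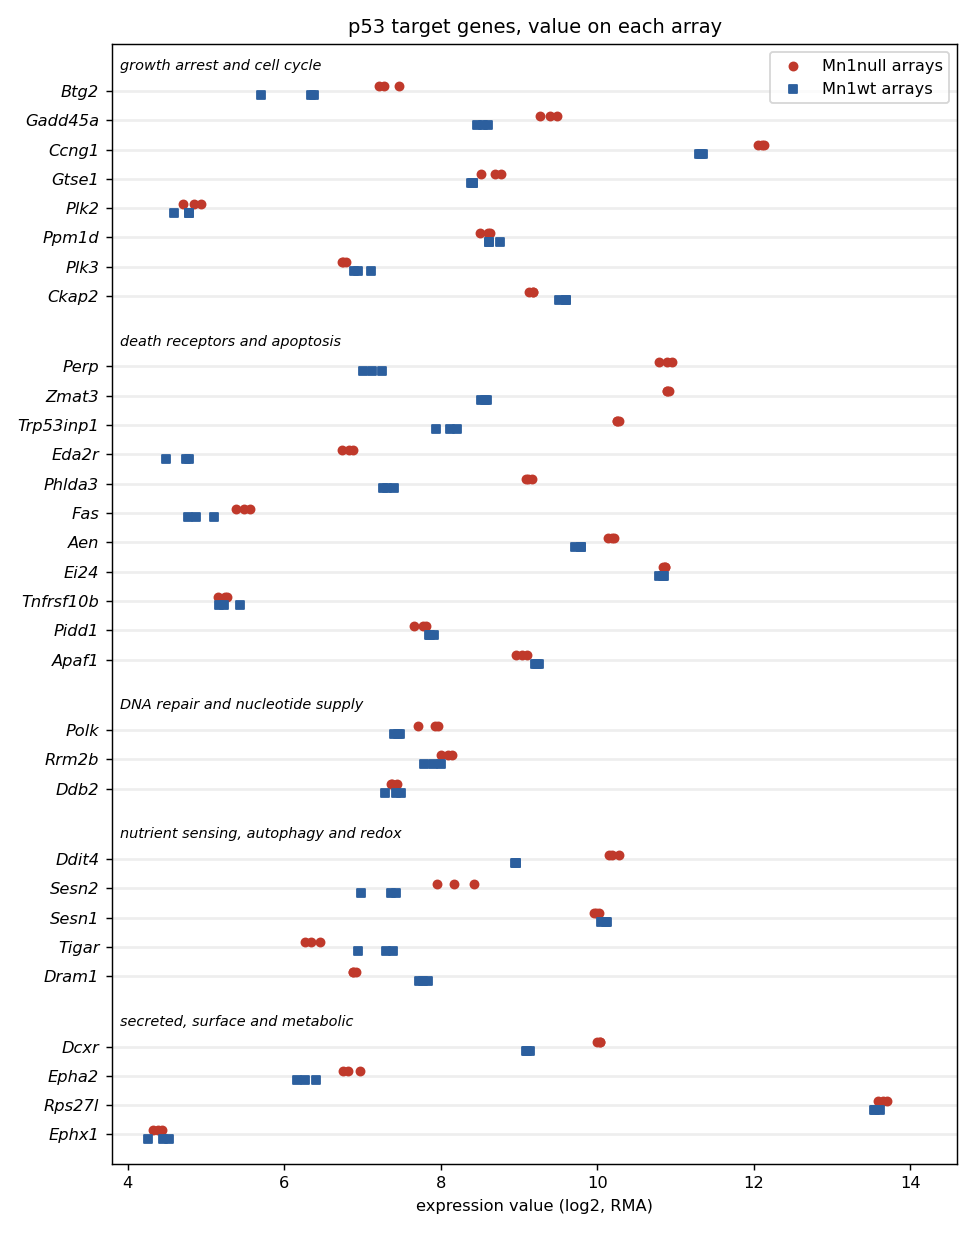
Expression value (log2, RMA; horizontal axis) of each of the 31 p53 target genes on every array, with 3 Mn1null arrays as red circles above 3 Mn1wt arrays as blue squares in each row, grouped by role. Mn1null circles lie to the right of the Mn1wt squares without overlap for 16 genes, most widely for Perp; signals of different genes come from different probes and are not comparable in level.

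The largest rises were in the role grouped here as death receptors and apoptosis. Among 11 death receptor and apoptosis genes there were 7 rises (63.6%) and 1 fall (9.09%), and the median difference was 0.56. Over all genes tested 23.2% rose and 25.6% fell. Perp encodes a tetraspan membrane protein that promotes apoptosis downstream of p53 and also sits in desmosomes. It read 10.89, 10.95 and 10.78 in the Mn1null arrays, against 7.13, 7.00 and 7.24 in the Mn1wt arrays. Every Mn1null value lay more than 3 log2 units above every Mn1wt value, a 13.5-fold difference (3.75 ± 0.076, SE; limma adjusted p = 1.76e-07). Another desmosome gene, Dsp, was at 5.86 ± 0.22 in Mn1null and 9.15 ± 0.13 in Mn1wt (SD, n = 3 each). No further desmosome gene was examined here, and a link to the Perp difference was not tested. Of 11 epithelial markers tested, Krt19 rose by 0.22, Dsp fell by 3.29 and 8 did not pass. Krt18 also fell, at 3.57 in Mn1null and 5.15 in Mn1wt, and its Mn1null values all lay under the filter level, so the size of its fall is only bounded from below.

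Zmat3, a zinc finger protein that binds RNA, read 10.92, 10.88 and 10.89 in Mn1null and 8.59, 8.52 and 8.56 in Mn1wt. Replicates of both groups agreed within 0.1, and the rise was 5.07-fold (2.34 ± 0.044, SE; limma adjusted p = 1.45e-07), the smallest adjusted p among the 31 genes. Trp53inp1, a stress protein that acts in autophagy and p53 activation, read 10.25, 10.26 and 10.27 in Mn1null, against 8.11, 7.94 and 8.20 in Mn1wt. This was a 4.51-fold rise (2.17 ± 0.071; adjusted p = 1.33e-06). A second Trp53inp1 probe set averaged 4.75 in Mn1null, and its Mn1wt values all lay under the filter level. It passed the filter only through Mn1null, so its call is not a second measure of the rise.

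Eda2r, a receptor for the ligand ectodysplasin A2, read 6.82, 6.74 and 6.88 in Mn1null, against 4.75, 4.79 and 4.49 in Mn1wt. The groups were far apart, with a 4.41-fold rise (2.14 ± 0.089, SE; limma adjusted p = 3.40e-06), and the Mn1wt mean lay near the low end of the signal range, where RMA compresses differences. Phlda3, whose protein competes with AKT for membrane lipids, read 9.11, 9.09 and 9.17 in Mn1null and 7.40, 7.31 and 7.26 in Mn1wt. Its rise of 3.48-fold (1.80 ± 0.054; adjusted p = 8.76e-07) also left no overlap.

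Death receptors and executioners showed smaller differences. Fas, the receptor of Fas ligand, read 5.48, 5.57 and 5.38 in Mn1null and 5.11, 4.87 and 4.77 in Mn1wt, a low signal in both groups. It rose 1.47-fold (0.56 ± 0.095, SE; limma adjusted p = 0.00231). The TRAIL receptor gene Tnfrsf10b averaged 5.23 ± 0.062 in Mn1null and 5.28 ± 0.14 in Mn1wt (SD, n = 3 each), and its 95% interval of the difference ran from -0.24 to 0.13. Aen, a nuclease that enhances apoptosis, read 10.21, 10.14 and 10.19 in Mn1null, against 9.71, 9.79 and 9.79 in Mn1wt. It rose 1.33-fold (0.42 ± 0.048), and its other 3 probe sets gave rises of 0.34 to 0.71.

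Apaf1, the scaffold of the apoptosome, was the gene of this role that fell. It read 8.96, 9.03 and 9.10 in Mn1null and 9.21, 9.26 and 9.23 in Mn1wt, a difference of -0.20 ± 0.052 (SE; limma adjusted p = 0.0176). The call was lost without Mn1null replicate 1 (adjusted p = 0.0617) or Mn1wt replicate 2 (0.0563), and a second Apaf1 probe set differed by 0.062 and did not pass. Pidd1, the scaffold that activates caspase-2, differed by -0.13 (95% interval -0.26 to 0.0056), and Ei24, a membrane protein of the endoplasmic reticulum, by 0.030 (-0.073 to 0.13). Neither passed, although the Pidd1 values of Mn1null all lay below those of Mn1wt.

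**Figure D2:**
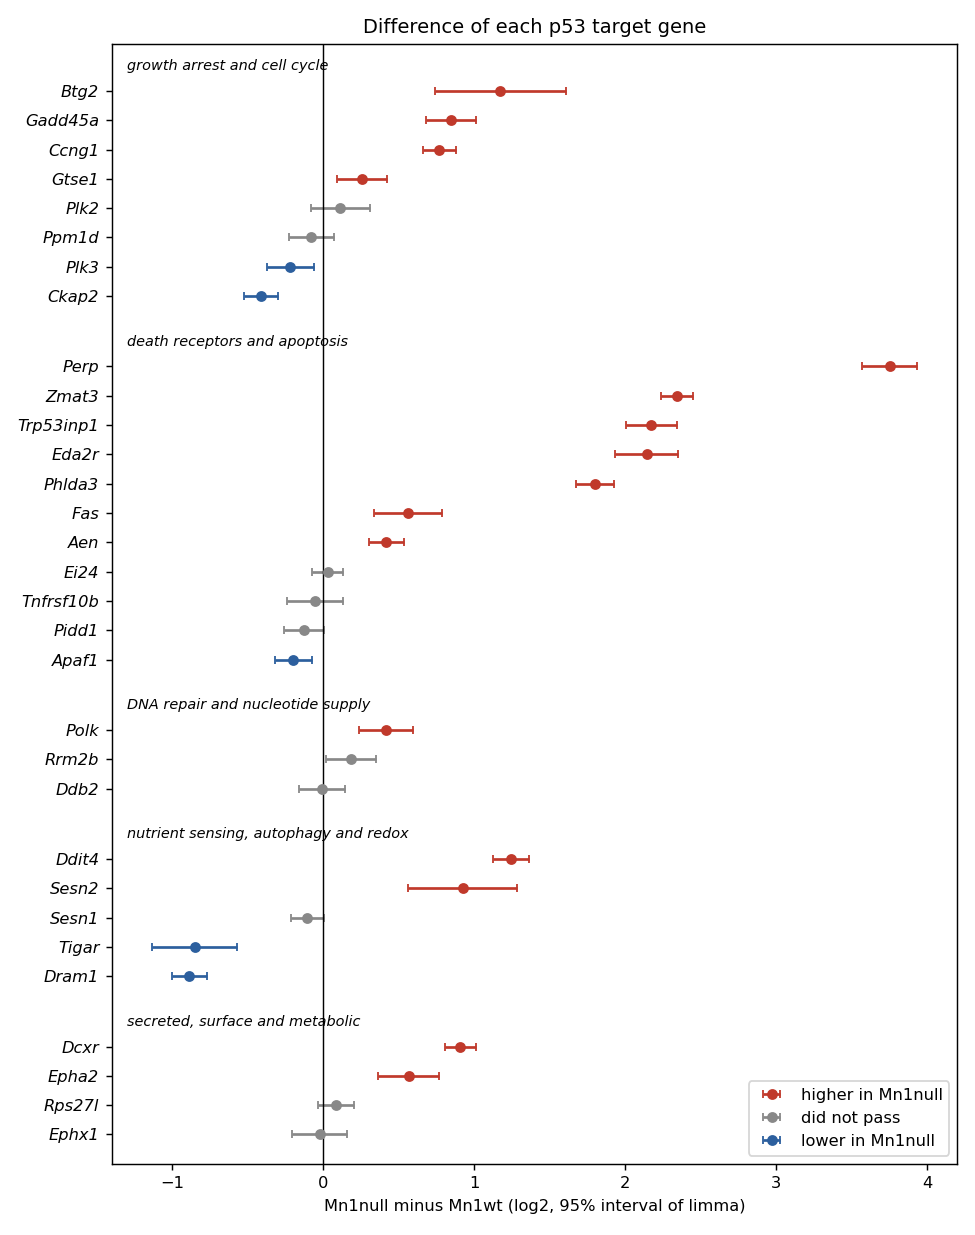
Difference Mn1null minus Mn1wt (log2; horizontal axis) of each p53 target gene, with limma's 95% interval as bars, by role; red marks 16 genes that were higher, blue 5 that were lower and grey 10 that did not pass. The widest difference is that of Perp at 3.75, and the lowest are those of Dram1 at -0.89 and Tigar at -0.85.

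Growth arrest and cell cycle genes were divided. Among 8 genes there were 4 rises (50%) and 2 falls (25%), and the median difference was 0.19. The share of falls was near the 25.6% of all genes tested, and 23.2% of all genes rose. Btg2, an antiproliferative cofactor, read 7.28, 7.47 and 7.21 in Mn1null, against 6.38, 6.35 and 5.71 in Mn1wt. Mn1wt replicate 3 stood apart from the other Mn1wt arrays, giving Btg2 the widest replicate spread of the 31 genes (SD 0.38 in Mn1wt). The rise was 2.25-fold (1.17 ± 0.18, SE; limma adjusted p = 0.00155), and 0.95 without that array.

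Gadd45a, a growth arrest and DNA damage gene, read 9.48, 9.27 and 9.40 in Mn1null and 8.46, 8.55 and 8.61 in Mn1wt. It rose 1.80-fold (0.85 ± 0.070, SE; limma adjusted p = 7.35e-05) with no overlap. Ccng1, which encodes cyclin G1 and acts in feedback on Mdm2, read 12.10, 12.14 and 12.05 in Mn1null, against 11.33, 11.30 and 11.35 in Mn1wt. Its rise on this probe set was 1.70-fold (0.77 ± 0.046; adjusted p = 1.80e-05), and its other 2 probe sets gave larger rises of 1.03 and 1.20. The feedback phosphatase gene Ppm1d averaged 8.58 ± 0.073 in Mn1null and 8.66 ± 0.081 in Mn1wt (SD, n = 3 each). It did not pass (95% interval of the difference -0.23 to 0.069).

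The microtubule-associated genes of this role differed in direction. Gtse1, whose protein binds p53 in G2 and lowers its activity, read 8.70, 8.52 and 8.77 in Mn1null and 8.41, 8.39 and 8.41 in Mn1wt. It rose 1.20-fold (0.26 ± 0.070, SE; limma adjusted p = 0.0198), and the call was lost without Mn1null replicate 1 (0.0632) or 3 (0.0563) and without Mn1wt replicate 1 (0.0506) or 2 (0.0564). Ckap2, a spindle protein, read 9.13, 9.17 and 9.17 in Mn1null, against 9.60, 9.51 and 9.60 in Mn1wt, and fell by 0.41 ± 0.048 (adjusted p = 3.81e-04). Among 21 other mitosis and G2/M genes tested, 21 fell, by a median of 0.63 and within a range of differences from -1.04 to -0.33. The fall of Ckap2 lay inside that range, and the Gtse1 difference outside it.

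The polo-like kinases, which act in stress responses and centrosome biology, showed small differences. Plk3 read 6.76, 6.78 and 6.74 in Mn1null, against 6.95, 6.89 and 7.11 in Mn1wt. All 3 Mn1null values were lower, by -0.22 ± 0.066 (SE; limma adjusted p = 0.0293), but the call was lost when any 1 of 5 arrays was left out (adjusted p of 0.0523 to 0.0803), Mn1wt replicate 2 being the exception. Plk2 averaged 4.83 ± 0.12 in Mn1null and 4.72 ± 0.11 in Mn1wt (SD, n = 3 each), close to the filter level, and did not pass. Btg2, Plk2 and Plk3 also belong to the immediate early genes, of which 11 others were tested. Among those 4 rose and 4 fell, Egr1 by 2.10 upward and Jun at -1.35.

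DNA repair genes showed 1 rise among 3 (33.3%) and 0 falls, against 23.2% higher and 25.6% lower over all genes tested. Polk, a polymerase that copies past damaged bases, read 7.92, 7.70 and 7.96 in Mn1null and 7.46, 7.41 and 7.48 in Mn1wt. It rose 1.33-fold (0.41 ± 0.076, SE; limma adjusted p = 0.00334), and its second probe set rose by 0.61. Rrm2b, the p53-inducible subunit of ribonucleotide reductase, read 8.01, 8.15 and 8.10 in Mn1null and 7.90, 7.79 and 8.01 in Mn1wt. The groups overlapped narrowly and the difference of 0.18 ± 0.070 did not pass (adjusted p = 0.0670). A dimmer Rrm2b probe set, with means of 6.53 in Mn1null and 5.84 in Mn1wt, rose by 0.69 (adjusted p = 7.17e-04 over 31526 probe sets, of which 19.3% were called higher and 22.2% lower). Ddb2, which recognises ultraviolet damage, differed by -0.0086 (95% interval -0.16 to 0.14) and did not pass. A second, dimmer Ddb2 probe set differed by -0.29 (95% interval -0.56 to -0.025) and did not pass either (limma adjusted p = 0.0789). Its Mn1null values all lay below those of Mn1wt.

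Genes of nutrient sensing, autophagy and redox control moved in opposite directions, 2 up and 2 down among 5 tested, with a median difference of -0.11. The shares were 40% higher and 40% lower, against 23.2% and 25.6% of all genes tested. Ddit4, an inhibitor of mTORC1 signalling, read 10.28, 10.15 and 10.18 in Mn1null, against 8.95, 8.96 and 8.96 in Mn1wt. It rose 2.37-fold (1.25 ± 0.050, SE; limma adjusted p = 3.01e-06). Sesn2, a leucine sensor that also restrains mTORC1, read 8.42, 7.96 and 8.17 in Mn1null and 7.36, 6.99 and 7.43 in Mn1wt. Its replicates were widely spread in both groups, but they did not overlap, and the rise was 1.89-fold (0.92 ± 0.15; adjusted p = 0.00209).

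Sesn1, a related sestrin, read 10.02, 9.98 and 9.96 in Mn1null, against 10.12, 10.04 and 10.11 in Mn1wt. Its difference of -0.11 (95% interval -0.22 to 0.0036) did not pass, while the third sestrin gene, Sesn3, rose by 1.01 ± 0.067 (SE). Whether the sestrins differ from each other was not tested. Ddit4 and Sesn2 are induced by ATF4 as well. Among 13 other ATF4-induced genes there were 7 rises and 5 falls, with a median difference of 0.14, from -1.28 for Slc7a11 to 1.82 for Nupr1. The part of ATF4 in these rises was not tested.

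Tigar and Dram1 had the lowest differences of the 31 genes. Tigar, a phosphatase that lowers glycolytic flux, read 6.46, 6.27 and 6.35 in Mn1null and 7.30, 6.94 and 7.39 in Mn1wt. It fell by 0.85 ± 0.12 (SE; limma adjusted p = 9.09e-04), and its other 2 probe sets gave falls, at -0.46 and -0.89. Dram1, a lysosomal membrane protein that promotes autophagy, read 6.91, 6.88 and 6.87 in Mn1null, against 7.72, 7.77 and 7.84 in Mn1wt. It fell by 0.89 ± 0.049 (adjusted p = 1.21e-05), again without overlap.

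**Figure D3:**
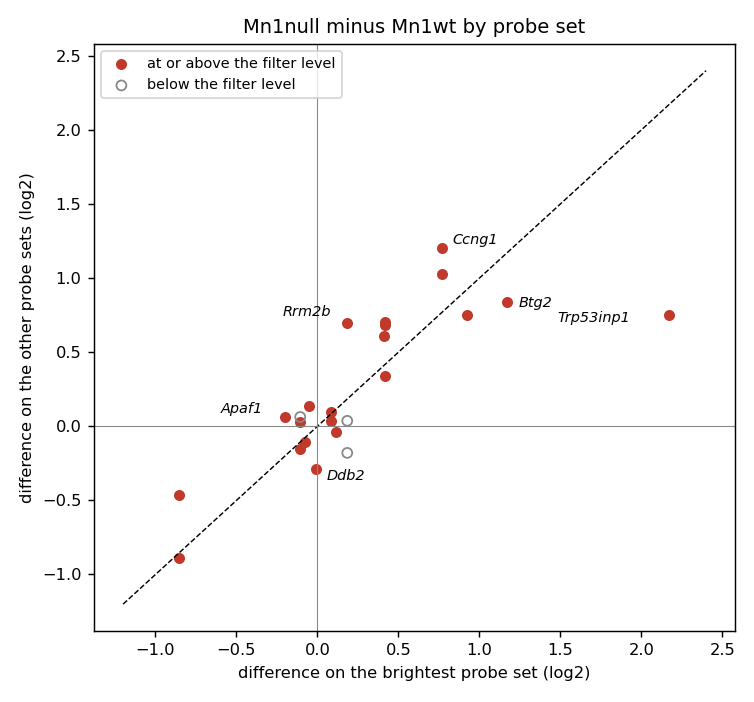
Difference Mn1null minus Mn1wt (log2) on each of the 24 other probe sets (vertical axis) against the difference on the brightest probe set of the same gene (horizontal axis) for 15 p53 target genes; the dashed line marks equal values, and grey open circles are 3 probe sets below the filter level. Of 12 other probe sets of called genes, 11 gave the same call, among them that of Trp53inp1, which passed the filter only through Mn1null; the exception belongs to Apaf1, and the point farthest from the line is Trp53inp1.

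Of the 4 surface and metabolic genes tested, 2 rose and 2 did not pass. Dcxr, a reductase of sugars and dicarbonyls, read 10.03, 9.99 and 10.03 in Mn1null, against 9.09, 9.10 and 9.15 in Mn1wt. The rise was 1.87-fold (0.91 ± 0.043, SE; limma adjusted p = 6.24e-06). Epha2, a receptor tyrosine kinase for ephrins, read 6.97, 6.82 and 6.75 in Mn1null and 6.27, 6.41 and 6.16 in Mn1wt. It rose 1.48-fold (0.57 ± 0.085; adjusted p = 0.00128). The ribosomal protein-like gene Rps27l differed by 0.084 (95% interval -0.035 to 0.20), and its probe sets may also take signal from its close relative Rps27. The epoxide hydrolase gene Ephx1 lay near the filter level, at 4.39 ± 0.058 in Mn1null and 4.41 ± 0.14 in Mn1wt (SD, n = 3 each).

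For the 10 genes that did not pass, the 95% intervals of the difference together spanned -0.26 to 0.35. Changes of more than 1.27-fold upward or 1.20-fold downward therefore lay outside the interval of each of these genes on its brightest probe set.

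**Figure D4:**
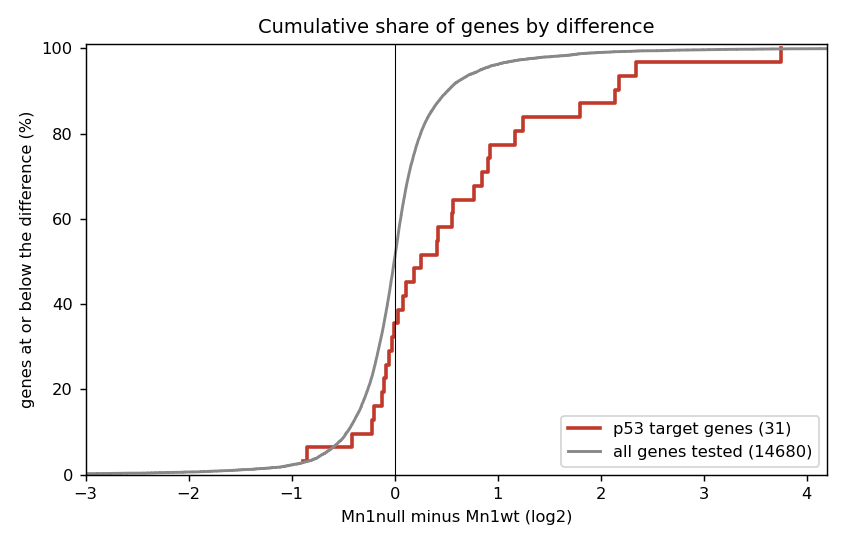
Cumulative share of genes (%; vertical axis) at or below a given difference Mn1null minus Mn1wt (log2; horizontal axis) for the 31 p53 target genes in red and all 14680 genes tested in grey. The upper quartile of the p53 target genes is 0.91, against 0.19 for all genes, and the lower quartiles are -0.067 and -0.20.

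The rest of the pathway was set beside these genes. In the ARF-p53 core, 5 of 6 genes tested rose and 0 fell (also 0 at limma's unadjusted p under 0.05), among them Cdkn2a, the locus of ARF and INK4A, by 4.88, the cell cycle inhibitor Cdkn1a by 1.69 and the BH3-only gene Bbc3 by 1.31. Mdm2, the ubiquitin ligase that restrains p53, averaged 9.70 ± 0.042 in Mn1null and 9.20 ± 0.038 in Mn1wt (SD, n = 3 each), and Pmaip1 did not pass. The p53 gene itself was not analysed here. Among 26 other reported p53 targets there were 17 rises (65.4%) and 3 falls (11.5%), and the median difference was 0.43. Over all genes tested the shares were 23.2% higher and 25.6% lower. The lists were chosen with earlier results of these data known, so their counts are no independent support for those of the p53 target genes. Thbs1, an inhibitor of blood vessel growth, rose by 2.74 ± 0.062 (SE), the adenylate kinase Ak1 by 1.75 ± 0.082 and the tetraspanin Cd82 by 1.67 ± 0.056, while Trp53i11 (-0.41), Tgfa (-0.28) and Gpx1 (-0.16) fell.

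Upstream regulators of p53 gave a different count. Among 20 genes there were 4 rises and 9 falls, and the median difference was -0.037. Hipk2, a kinase that phosphorylates p53, rose by 1.42 ± 0.061 (SE) and the checkpoint kinase Chek2 by 0.37 ± 0.048. The deacetylase gene Sirt1 fell by 0.87 ± 0.083, the checkpoint kinase Chek1 by 0.83 ± 0.045 and the ubiquitin protease Usp7 by 0.48 ± 0.047.

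**Figure D5:**
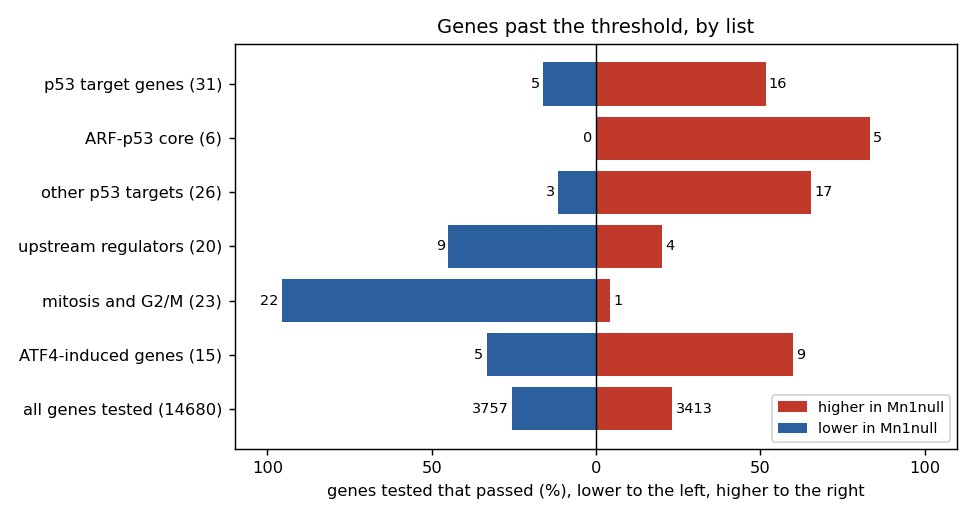
Share of genes tested (%; horizontal axis) past limma's threshold and higher in Mn1null (red, right) or lower (blue, left), for 6 gene lists and all genes, with the number of genes beside each bar and the number tested in brackets. Higher calls outnumber lower ones 16 to 5 for the p53 target genes and 17 to 3 for the other p53 targets, while 22 of 23 mitosis and G2/M genes were lower; the mitosis list includes Gtse1 and Ckap2, and the ATF4 list Sesn2 and Ddit4.

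Cell type markers also differed between the groups. The pan-leukocyte gene Ptprc was at 11.57 in Mn1null and 11.54 in Mn1wt. Of the 15 blood cell genes tested, 8 rose and 3 fell, with Csf2rb (1.36), Cebpa (0.93) and Itgam (0.84) highest in difference and Csf1r (-1.50), Csf2ra (-0.46) and Kit (-0.17) lower. Of 10 mast cell markers tested, 6 rose, 1 fell (Kit) and 3 did not pass (Tpsb2, Cma1 and Mitf). All 11 mast cell markers with a probe set, including Mcpt4 under the filter level, were summed as linear signal. The sum ranged from 17440 to 17737 in Mn1null, against 3609 to 3661 in Mn1wt. Such sums were also higher in Mn1null for blood cell genes and for stroma and endothelium markers (2140 to 2249, against 775 to 861). They were lower for lymphoid and epithelial markers and overlapped for erythroid markers. Of 8 lymphoid markers tested, 0 rose and 1 fell, Cd79b. Of 8 stroma and endothelium markers, Pecam1 and Pdgfrb rose and Dcn fell, and of 6 erythroid markers 3 rose and 1 fell. In such bulk samples a change in the share of a cell type and a change per cell cannot be told apart, and the part of cell types in the p53 target differences was not tested.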

How the data were processed

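Total RNA of 3 Mn1null and 3 Mn1wt samples was labelled with biotin and read on 6 Affymetrix arrays of 1 colour. The deposited table holds log2 values; per the submitters' processing notes, the authors used RMA. The sources used here name neither the RMA version nor any filter. RMA removes overall differences between arrays and compresses low signals, so folds of dim genes are understated. For arrays it is their number that limits the precision.

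Of 45101 probe sets, 64 controls were kept out of tests and 34945 named 1 gene. A gene was read by its brightest probe set over 6 arrays, and it was tested where that mean reached the 30th percentile of probe sets (log2 4.07). Mn1null minus Mn1wt was fitted without a block (limma 3.58.1, lmFit and eBayes, R 4.3.3), 2-sided, with Benjamini-Hochberg adjustment over 14680 genes. Other probe sets were fitted in a table of 31526 probe sets. The steps were tested on simulated data. A fold is 2 to the power of the difference. Promoters are from RefSeq.

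All 32 genes are named. Genes outside the set come from fixed lists, at most 3 per direction among those that passed. Mn1, Sesn3, Mdm2 and Pmaip1 were named outside that rule. So were cell type markers and genes at the ends of a range, which were chosen after their values were seen. The p53 target genes and the lists were chosen with earlier results of these data known. The alternatives varied the rule for probe sets, the filter, the normalization, the variance model, the replicate number as a block, the threshold (0.01) and the arrays, leaving out 1 at a time.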

Additional observations from a re-analysis of the deposited data

How the results depend on the processing

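Of the 21 called p53 target genes, 18 kept their call under each alternative that gave them a value, and Gtse1, Plk3 and Apaf1 lost it under at least 1. Of the 18, 16 had a value under all 16 alternatives, while Fas had none with the filter at the 50th percentile and Epha2 none on probe sets without a suffix. The number of genes that rose was 15 to 18 under all alternatives. The number that fell, 5 in the main setting, was 3 at a threshold of 0.01 and 3 to 4 when 1 array was left out (3 without Mn1null replicate 1). With an intensity trend and robust eBayes 18 rose and 6 fell, as Rps27l (adjusted p = 0.0244), Rrm2b (0.0349) and Sesn1 (0.0384) gained calls. The median difference was 0.41 on probe sets without a suffix for shared or cross-hybridising probes, 0.34 with a filter at the 50th percentile, both over fewer genes, and 0.20 to 0.33 when 1 array was left out. With the mean of the probe sets Apaf1 no longer passed (-0.068, adjusted p = 0.471), while Rrm2b passed (0.18, adjusted p = 0.0346), as it did with the filter at the 50th percentile (0.0456) and without Mn1wt replicate 3 (0.0295). Among genes that did not pass, the sign turned for Tnfrsf10b with the mean of its probe sets (0.042), Sesn1 on its unsuffixed probe set (0.028) and Ddb2 with array weights (0.013). When 1 array was left out Ddb2 ranged from -0.066 to 0.036, Ephx1 from -0.099 to 0.032 and Tnfrsf10b from -0.11 to 0.025. With the replicate number as a block 16 genes rose and 4 fell, and Plk3 lost its call (adjusted p = 0.0528). Deviations of same-numbered samples correlated at -0.039, 0.11 and 0.080, so these samples shared little variation. Such correlations cannot tell whether same-numbered samples were prepared together, and the sources used here do not say. The cause of these changes was not tested. Signals near the filter level, as for Plk2, Ephx1 and the Mn1wt arrays of Eda2r and Fas, limit what can be detected.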
